A study of Mus musculus with 15 samples.

Results

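The transcript response to calorie restriction (CR) was followed in the gastrocnemius, the large fast-fibre muscle of the calf, of mice that lack Sirt3. The contrast set 4 arrays from calorie restricted Sirt3 knockout mice against 4 arrays from knockout mice on the control diet, 8 of the 15 arrays in the series. The other 7 arrays came from wildtype mice, 3 on the control diet and 4 on CR, and are given beside the knockout values. All mice were male C57BL/6 animals of 12 months, and each array held the RNA of 1 mouse. How strong and how long the restriction was, and how the Sirt3 allele was made, the sources used here do not say. Values are deposited log2 intensities, so a difference of 1 is a doubling of signal. Of 19938 genes with a single symbol, 12056 had a mean above the filter on low values, 5.32 on the log2 scale, and were tested. With 4 arrays a group, the number of arrays limits the precision of every comparison.

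SIRT3 is a deacetylase of the mitochondrial matrix that uses NAD and acts on enzymes of fuel oxidation, and CR is a classic condition under which its substrates lose acetyl groups. Muscle fibres also keep a large pool of chaperones. Small heat shock proteins hold unfolding proteins in solution, the HSP70 and HSP90 machines with their J-domain cochaperones refold them, and the transcription factor HSF1 switches these genes on under heat, exercise and other stress. At the Z-disc, where actin filaments are anchored, filamin C and its partners bear load, and the chaperone-assisted removal of damaged filamin depends on BAG3 and HSPB8. Mechanical load also induces a set of genes for Z-disc and titin-associated proteins, of which the ankyrin repeat protein Ankrd1 is the best known.

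The Sirt3 transcript was read by 1 probe set. Its log2 level was 6.12, 6.19, 5.36 and 5.02 on the knockout control arrays and 4.94, 6.05, 5.50 and 5.41 on the knockout CR arrays, all below the 7 wildtype arrays, which lay between 6.38 and 6.68. The diets overlapped in knockout mice. The log2 change under CR was -0.20 (SE 0.25, limma adjusted p = 0.773) and -0.047 without knockout control replicate 1, and an exact two-sided permutation test over 70 splits of the 8 arrays gave p = 0.6, with 0.0286 the smallest p that this number of arrays allows. The sources used here do not say whether these probes fall inside the deletion. The muscle identity of the samples was clear from the 10 muscle markers, whose mean level was 11.77 to 11.92 on the 8 knockout arrays.

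Knockout control replicate 1 stood apart from the other knockout arrays, and the values it moved most are given with and without it. On this array 272 genes lay more than 1 log2 unit above the median of the other 7 knockout arrays and 63 lay as far below it. The same counts were 11 to 51 above and 4 to 22 below for each of the other knockout arrays. The genes farthest above were transcripts of male germ cells, and those farthest below included members of the fasting and glucocorticoid response lists.

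In knockout muscle CR lowered 7 genes, 0.0581% of the 12056 tested, and 1 gene, 0.00829%, lay past the threshold on the higher side (limma over all 15 arrays with Benjamini-Hochberg adjustment, threshold 0.05). The 7 were Ankrd1, Hspb1, Flnc, Enah, Lmcd1, Dnaja4 and Rnf115. The higher one, the microRNA gene Mir409, passed the filter on low values only through the knockout CR arrays, so no increase is read from it. Apart from Rnf115, a ubiquitin ligase, these lowered genes encode chaperones, actin-associated proteins or load-responsive proteins. All 4 knockout CR arrays lay below every one of the other 11 arrays for 7 of the 7, wildtype CR arrays included, which 0.688% of all tested genes did. Among the 371 genes whose knockout diets separated downwards 83 did so, and since the 7 were called on the same arrays, nothing is read from their count. At an unadjusted p under 0.05 there were 819 genes higher and 623 lower, and the median change over all genes was 0.00961. The 4 CR arrays lay above the 4 control arrays for 471 genes (3.91%) and below them for 371 (3.08%). In wildtype muscle 13 genes were higher (0.108%) and 2 lower (0.0166%), and the diets separated upwards for 9.55% and downwards for 2.95% of genes.

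**Figure D1:**
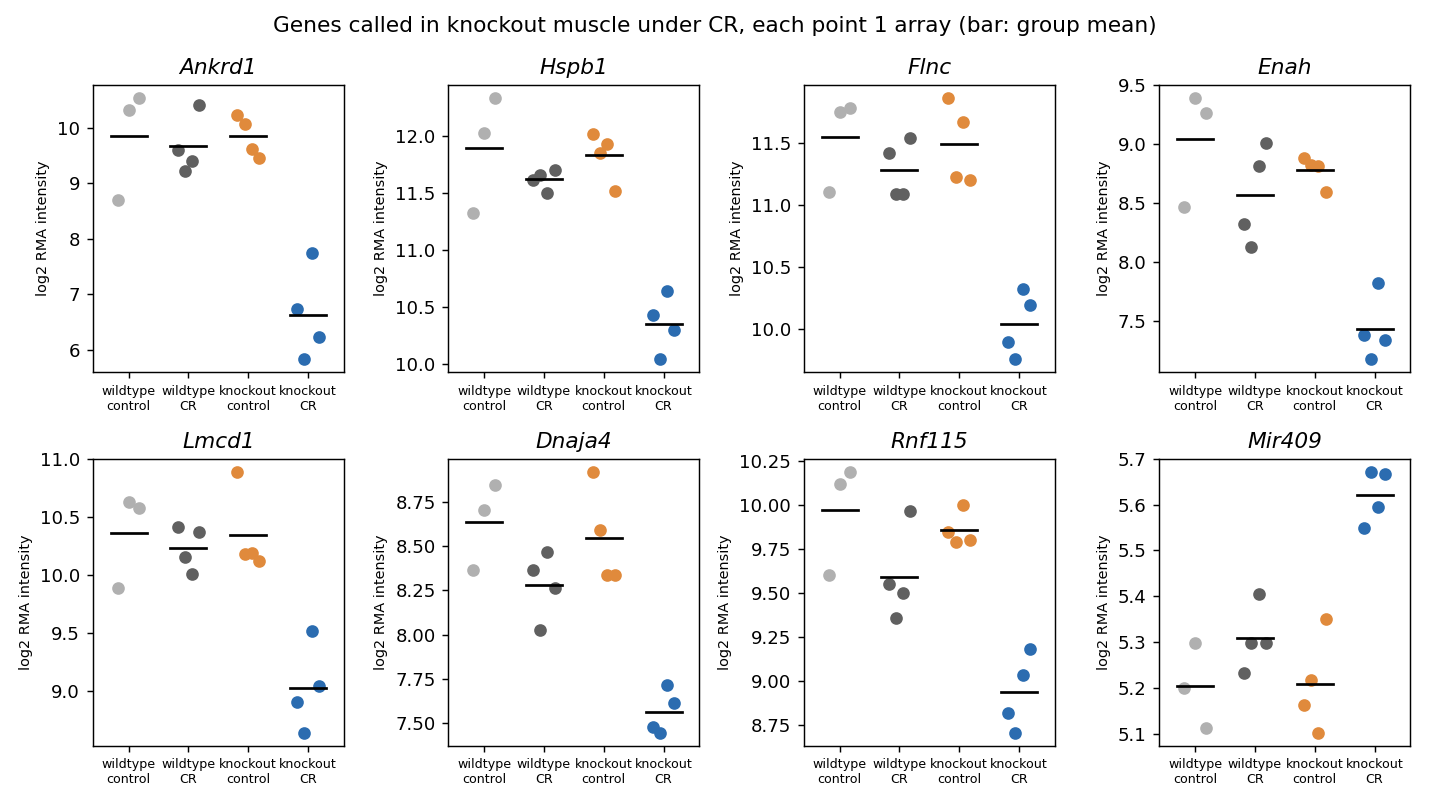
Log2 RMA intensity (vertical axis) of the 8 genes past the threshold, by group (horizontal axis, CR is calorie restriction); each point is 1 array and the bar is the group mean. For the 7 lowered genes the 4 knockout CR arrays sit below all 11 other arrays, and for Mir409 they sit above them.

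These counts moved with the arrays in the fit. Leaving out knockout CR replicate 1 or knockout CR replicate 2 left 0 genes past the threshold in either direction. Without knockout CR replicate 4 or without knockout control replicate 2 there were 2 lower genes and 0 higher, without knockout control replicate 1 there were 3 and 0, and without knockout control replicate 3 there were 4 lower and 1 higher. Without knockout control replicate 4 there were 2 higher and 6 lower genes, and without knockout CR replicate 3 there were 0 higher and 7 lower. Wildtype arrays enter through the shared estimate of spread: 3 genes were higher and 12 lower without wildtype control replicate 1, 1 higher and 10 lower without wildtype control replicate 2, 2 higher and 10 lower without wildtype control replicate 3, 0 higher and 4 lower without wildtype CR replicate 1 or without wildtype CR replicate 3, 0 and 6 without wildtype CR replicate 2, and 0 and 8 without wildtype CR replicate 4. Of the 8 genes, Hspb1 and Flnc passed in 13 of these 15 fits, Dnaja4 in 11, Ankrd1 in 10, Enah in 6, Rnf115 in 5, and Lmcd1 and Mir409 in 4. The direction was the same in all 15 fits for all 8.

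Among the 32 gene lists described, chaperones had the largest share of members separated downwards. Of 37 tested heat shock proteins and cochaperones, 2 fell past the threshold (Hspb1 and Dnaja4), 0 rose, and 20 lay lower on all 4 CR arrays than on all 4 control arrays, against 3.08% of all genes. The median log2 change of the 37 was -0.35, beside 0.00961 for all genes, and 33 of the 37 changes were negative. The mean level of the group was 8.69, 8.65, 8.61 and 8.46 on the control arrays and 8.14, 8.06, 8.11 and 8.10 on the CR arrays, so the diets did not overlap. In wildtype muscle the median was -0.15, with 7 of the 37 members lower on every CR array, against 2.95% of all genes, and 0 past the threshold. For 14 of the 37 the knockout CR arrays were below all 11 other arrays, which 0.688% of all tested genes were. In these bulk samples, fewer cells of a type and less RNA per cell cannot be told apart.

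Hspb1 encodes HSP27, a small heat shock protein that binds actin and filamin in muscle. Its log2 level was 12.02, 11.85, 11.93 and 11.52 on the knockout control arrays and 10.43, 10.05, 10.64 and 10.30 on the CR arrays. The lowest control array stood well above the highest CR array. The log2 change was -1.47 (SE 0.18, limma adjusted p = 0.0131), a 2.78-fold lower signal, and -1.41 without knockout control replicate 1 (adjusted p = 0.0458). A further probe set of Hspb1 gave a log2 change of -1.49. In wildtype muscle the change was -0.28 (limma adjusted p = 0.54).

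Dnaja4, a J-domain cochaperone of HSP70, stood at 8.92, 8.59, 8.34 and 8.34 on the control arrays and at 7.48, 7.45, 7.72 and 7.61 on the CR arrays. All CR arrays were below all control arrays, and the log2 change was -0.98 (SE 0.14, limma adjusted p = 0.0174), or -0.86 without knockout control replicate 1 (adjusted p = 0.0458).

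Next to the threshold lay Hspb7, a small heat shock protein of heart and skeletal muscle that stabilises sarcomeres, which differed by -0.97 on the log2 scale (SE 0.17, limma adjusted p = 0.0566). Its level was 11.49, 10.68, 10.89 and 10.59 on the control arrays and 10.15, 9.84, 10.05 and 9.74 under CR. Hsph1, the HSP110 nucleotide exchange factor of HSP70, had a change of -0.76 (SE 0.14) and the same adjusted p of 0.0566. Neither gene passed, although the diets did not overlap for either.

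Promoters of chaperone genes carry heat shock elements, the HSF1 binding site built from inverted GAA units. The 300-base windows from 250 bases before to 50 after the annotated start are shown for Hspb1, Dnaja4 and Hsph1, the members past or beside the threshold with at least 2 matches to GAANNTTC or TTCNNGAA, in capitals, in a RefSeq promoter of build GRCm38.p6. Each motif reads the same on both strands, and matches may overlap. The windows lie at chr5:135887669-135887968 on the plus strand, chr9:54699309-54699608 on the plus strand and chr5:149636266-149636565 on the minus strand, and the last 2 genes have 2 annotated starts each, of which the one with more matches is shown.
Hspb1: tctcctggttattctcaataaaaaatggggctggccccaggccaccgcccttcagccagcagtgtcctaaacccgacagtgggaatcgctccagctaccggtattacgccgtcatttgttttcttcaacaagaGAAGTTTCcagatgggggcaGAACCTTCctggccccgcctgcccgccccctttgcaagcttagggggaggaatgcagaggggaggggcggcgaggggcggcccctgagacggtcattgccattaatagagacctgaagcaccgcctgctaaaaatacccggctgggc
Dnaja4: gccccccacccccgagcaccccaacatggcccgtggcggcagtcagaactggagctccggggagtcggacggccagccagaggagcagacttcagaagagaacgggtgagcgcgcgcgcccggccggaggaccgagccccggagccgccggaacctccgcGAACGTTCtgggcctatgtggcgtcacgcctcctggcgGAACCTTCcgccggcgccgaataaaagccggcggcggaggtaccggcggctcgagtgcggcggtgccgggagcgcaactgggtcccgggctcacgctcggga
Hsph1: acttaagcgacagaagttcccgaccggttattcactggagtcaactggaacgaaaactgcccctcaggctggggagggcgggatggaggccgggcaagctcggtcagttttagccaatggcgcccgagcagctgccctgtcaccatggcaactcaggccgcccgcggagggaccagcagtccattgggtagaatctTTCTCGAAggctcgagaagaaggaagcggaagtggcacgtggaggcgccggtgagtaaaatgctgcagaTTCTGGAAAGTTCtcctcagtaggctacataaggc

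The Hspb1 window held 2 matches, whose first bases lay at -117 and -97 from the start, the Dnaja4 window held 2, at -90 and -52, and the Hsph1 window held 3. A match was found for 14 of the 31 tested chaperone genes with a promoter entry (45.2%), and for 1324 of 9624 tested genes with an entry (13.8%). Over all 32851 promoters of that length the share was 15.1%. Among chaperone genes lower on all 4 CR arrays 8 of 16 held a match, and among those whose diets overlapped 6 of 15 did. Of the 7 genes past the threshold on the lower side, Hspb1, Dnaja4 and Ankrd1 held a match, and Flnc, Enah, Lmcd1 and Rnf115 held none in this window. A match is a description of letters and not evidence of binding.

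The inducible and constitutive chaperones of the cytosol, named here after their values were seen, had large changes with wide spread and did not pass. Hsp90aa1, the inducible HSP90, was at 8.90, 8.89, 8.52 and 8.16 on control arrays and at 7.18, 7.17, 7.27 and 7.19 on CR arrays, a log2 difference of -1.42 (SE 0.34, limma adjusted p = 0.171). The CR arrays lay close together, and the control arrays spread widely above them. Hspa1a, the inducible HSP70, had the largest negative value of the group, -1.86 (SE 0.67, limma adjusted p = 0.298), but its diets overlapped. Its control arrays read 6.82, 10.04, 9.66 and 9.09, with replicate 1 among the CR arrays at 7.17, 6.62, 7.53 and 6.87, and without that array the change was -2.55. The near-identical copy Hspa1b was not analysed here, and the probes may not separate the copies.

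Several further chaperones were lower on every CR array without passing the test and are likewise named after their values were seen. Hspb8, which works with BAG3 on damaged filamin, differed by -1.02 (SE 0.24, limma adjusted p = 0.16). Bag3 itself differed by -0.63 in knockout and by -0.63 in wildtype muscle, and Dnajb4, a J-domain cochaperone, by -0.86 and -0.84. Cryab, alpha B-crystallin, differed by -0.44 in knockout muscle (limma adjusted p = 0.109) and by 0.16 in wildtype muscle. The constitutive Hspa8 differed by -0.35 and -0.30. None of these differences between genotypes passed the test.

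Germ cell transcripts bear on part of the list. Hspa1l, Hspa4l and Hspa2, the last 2 named after their values were seen, are chaperones that testis expresses strongly. They stood 1.37, 1.61 and 1.93 log2 units above the median of the other knockout arrays on knockout control replicate 1. In total 8 of the 37 members lay more than 1 unit above that median, which includes the 4 CR arrays, and 3 of them lay as far above the median of the other 3 control arrays. The germ cell list was high on the same array. Without it the list median was -0.34, and 22 of the 37 were below all 3 remaining control arrays, against 5.77% of all genes. The share of germ cell RNA in the values that include this array was not tested.

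**Figure D2:**
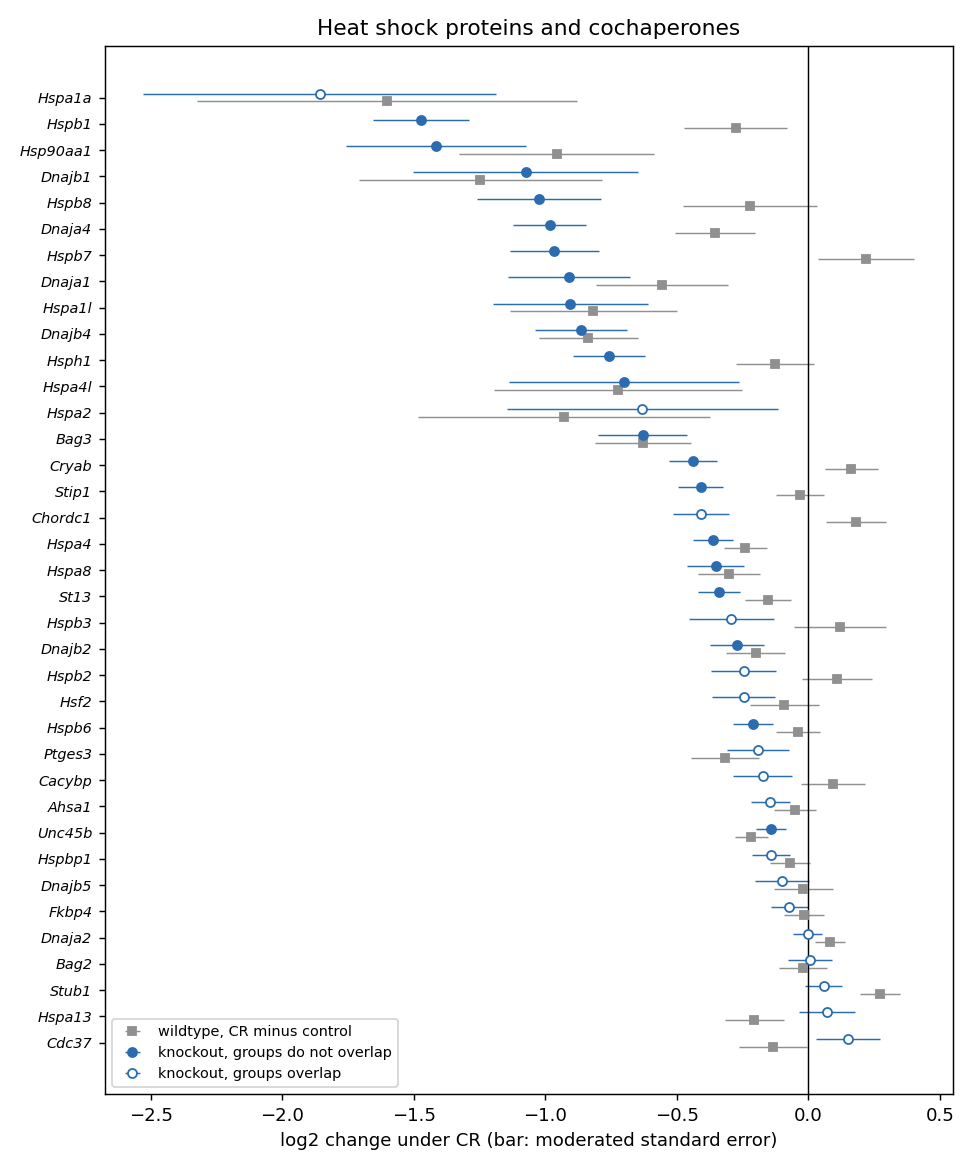
Log2 change under CR (horizontal axis) of the 37 tested heat shock proteins and cochaperones (vertical axis), in knockout (circles) and wildtype muscle (squares), with moderated standard errors as bars; filled circles mark the 20 genes whose knockout diets did not overlap. Most circles lie left of 0, and the squares of Hspb1, Hspb7, Hsph1 and Cryab lie nearer to 0 or right of it.

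Genes of load and stretch held the largest change of the contrast. Of 29 tested stretch and serum response genes 2 fell past the threshold (Ankrd1 and Lmcd1) and 0 rose, while 8 lay lower and 1 higher on all 4 CR arrays (3.08% and 3.91% of all genes did). The median log2 change was -0.14, and -0.26 without knockout control replicate 1. In wildtype muscle the median was 0.059, with 1 member past the threshold on the higher side, Actc1. The mean of the group was 8.40 to 8.54 on the knockout control arrays and 7.87 to 8.27 on the knockout CR arrays, without overlap.

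Ankrd1, a titin-binding repressor protein that load and denervation induce, was at 10.24, 10.07, 9.61 and 9.46 on the control arrays and at 6.73, 5.84, 7.75 and 6.23 on the CR arrays. The CR arrays spread over nearly 2 units, but all of them lay far below the control arrays. The log2 change was -3.21 (SE 0.44, limma adjusted p = 0.0142), a 9.24-fold lower signal. Without knockout control replicate 1 it was -3.08 (adjusted p = 0.056). Wildtype arrays read 8.70 to 10.54 on control and 9.22 to 10.42 on CR, a change of -0.19 (limma adjusted p = 0.87).

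Lmcd1, a LIM-domain protein of the calcineurin pathway, was at 10.89, 10.18, 10.19 and 10.12 on control arrays and at 8.91, 8.64, 9.51 and 9.04 on CR arrays. Knockout control replicate 1 was the high array among the controls. The change was -1.32 (SE 0.22, limma adjusted p = 0.0395), and -1.13 without that array (adjusted p = 0.091). Rcan1, an inhibitor of calcineurin that calcineurin itself induces, differed by -1.10 (SE 0.20, limma adjusted p = 0.0566), with control arrays at 9.18 to 9.36 and CR arrays at 7.86 to 8.72.

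The stress transcription factor Atf3 had the next largest change after Ankrd1 among genes whose diets did not overlap, -2.38 (SE 0.54, limma adjusted p = 0.149). Its control arrays read 8.26, 10.16, 10.39 and 9.36 and its CR arrays 6.69, 6.28, 8.20 and 7.49, so the lowest control and the highest CR array almost touched. Several titin and Z-disc linked members were also high on knockout control replicate 1. Csrp3, the muscle LIM protein, was at 10.36 there and at 8.91 to 9.08 on the other controls, Mustn1 was at 13.11 against 11.66 to 11.70, and Ankrd2 was at 10.84 against 10.19 to 10.61. Their changes were -1.20, -0.85 and -0.75 with that array and -0.86, -0.49 and -0.65 without it, and the diets did not overlap for any of them. Mustn1 and Ankrd2 were chosen for naming after their values were seen.

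Of 40 tested proteins of the Z-disc and costamere, the membrane anchor of the Z-disc, 2 fell past the threshold (Flnc and Enah) and 0 rose, with 8 lower and 3 higher on every CR array, against 3.08% and 3.91% of all genes. The median log2 change was -0.069, and -0.039 without knockout control replicate 1. The group's mean of 10.02 to 10.13 on control and 9.82 to 9.88 on CR arrays did not overlap, while the median of the changes stayed near 0.

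Flnc, filamin C, the actin crosslinker of the Z-disc, was at 11.86, 11.22, 11.67 and 11.20 on control and at 9.90, 9.76, 10.32 and 10.19 on CR arrays. The gap between the diets was wider than the spread within either. The change was -1.44 (SE 0.19, limma adjusted p = 0.0142), and -1.32 without knockout control replicate 1 (adjusted p = 0.0458). In wildtype muscle it was -0.26 (limma adjusted p = 0.58).

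Enah, an actin polymerisation factor, was at 8.88, 8.82, 8.81 and 8.59 on control and at 7.38, 7.18, 7.83 and 7.34 on CR arrays. The control arrays were tight and stood a unit or so above the CR arrays. The change was -1.34 (SE 0.22, limma adjusted p = 0.0395), and without knockout control replicate 1 it was -1.31 (adjusted p = 0.091).

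Klhl40, a muscle-specific BTB-kelch protein that stabilises thin filament proteins, differed by -1.53 (SE 0.28, limma adjusted p = 0.0566), and Xirp1, a filamin C partner that marks sites of muscle damage and repair, by -1.87 (SE 0.39, limma adjusted p = 0.104). Xirp1 read 10.27 to 11.06 on control and 8.32 to 9.67 on CR arrays. Klhl41 and Xirp2, relatives of these 2 named after their values were seen, differed by -0.47 and -0.50 with diets that did not overlap. In wildtype muscle Xirp1 differed by -0.72 and Klhl40 by -0.57, and the wildtype diets overlapped for both.

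**Figure D3:**
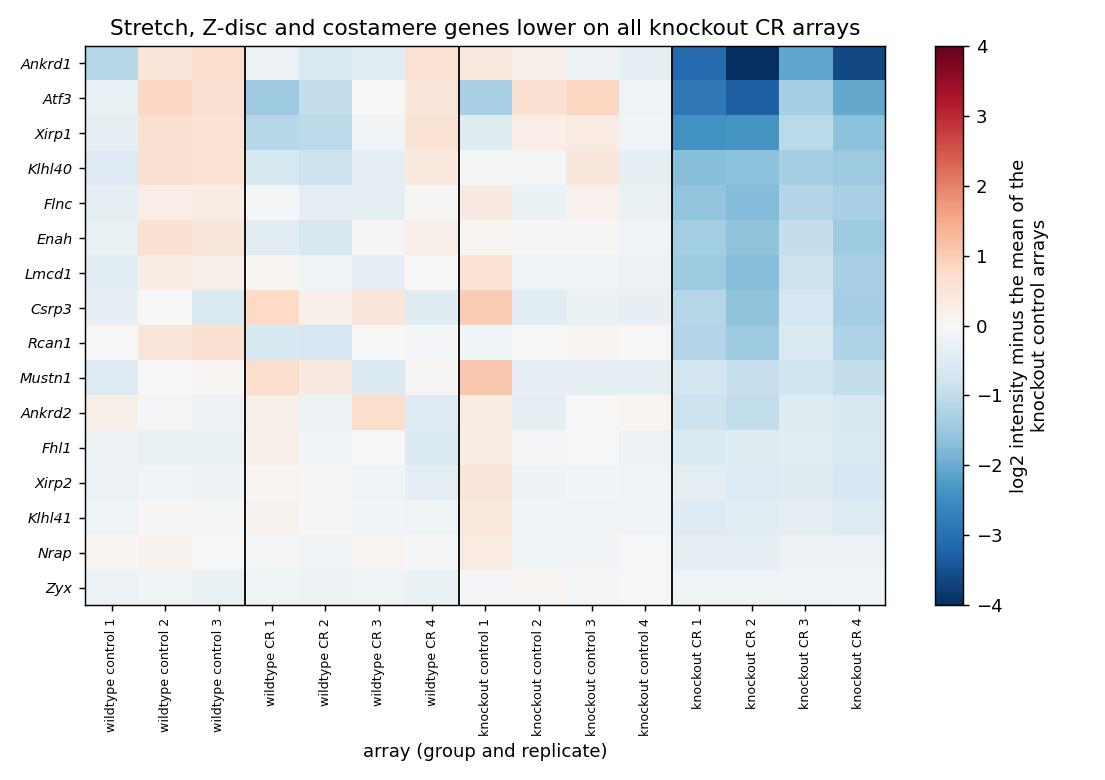
Log2 intensity minus the mean of the 4 knockout control arrays (colour) for the 16 stretch, Z-disc and costamere genes that lay lower on all 4 knockout CR arrays (rows, so the direction in the last 4 columns follows from the choice), on all 15 arrays (columns, by group and replicate). The wildtype columns vary around 0 for most rows, and knockout control replicate 1 is high for Csrp3, Mustn1 and Lmcd1.

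Rnf115, an E3 ubiquitin ligase also known as BCA2, was at 9.85, 9.79, 10.002 and 9.80 on control and at 8.82, 8.70, 9.03 and 9.18 on CR arrays. Both sets were tight and separate, with a change of -0.93 (SE 0.15, limma adjusted p = 0.0395) and of -0.93 without knockout control replicate 1 (adjusted p = 0.091). It was the only 1 of 27 tested FOXO and atrophy genes past the threshold. Their median was 0.0032, and -0.019 without that array, with 4 lower and 0 higher on every CR array (3.08% and 3.91% of all genes did). Fbxo32, the atrophy ligase atrogin-1, named after its values were seen, differed by 0.68 with all arrays and by 0.45 without knockout control replicate 1, and its diets overlapped. Of 35 proteasome subunits and activators 0 passed and 5 lay lower on every CR array, against 3.08% of all genes. Among these 5 were Psme3, an activator subunit, at -0.27 and Psmd11, a lid subunit, at -0.31. The median of the 35 was -0.085 in knockout muscle, -0.050 without knockout control replicate 1 and 0.12 in wildtype muscle. Otud1, a deubiquitinase outside the lists and named after its values were seen, differed by -2.10 (SE 0.45, limma adjusted p = 0.123) from 8.28 to 9.60 on control to 6.35 to 7.14 on CR arrays. Dok5, a docking protein of receptor tyrosine kinases that the naming rule gave, read 5.78, 5.82, 5.86 and 5.72 on control and 5.27, 5.47, 5.14 and 5.35 on CR arrays, without overlap, and differed by -0.49 (SE 0.087, limma adjusted p = 0.0566).

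Mir409 lies in a large imprinted microRNA cluster on chromosome 12 (hairpin at chr12:109743158-109743236, plus strand, GRCm38.p6). Its level was 5.16, 5.22, 5.10 and 5.35 on control and 5.55, 5.67, 5.60 and 5.67 on CR arrays, with no overlap, but close to the filter on low values. The mean of its other 3 groups was 5.20 to 5.31, under the filter at 5.32, so a gene at this level was tested only if its knockout CR arrays were high. The change was 0.41 (SE 0.066, limma adjusted p = 0.0395), and 0.40 without knockout control replicate 1 (adjusted p = 0.091). With no filter the adjusted p was 0.0561. The mature products in RefSeq are shown to identify the gene, with the seed, bases 2 to 8, in capitals. The arms have different seeds.
mmu-miR-409-5p: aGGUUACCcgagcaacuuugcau
mmu-miR-409-3p: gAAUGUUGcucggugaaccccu

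The array was hybridised with labelled total RNA and its probe set was listed under the gene, so the value cannot be assigned to either arm. Within 300000 bases of Mir409 RefSeq lists 56 other hairpins, of which 38 are in the table and 10 were above the filter. These neighbours were examined after the Mir409 value was seen. Of the 10, 0 passed the threshold and 1 lay higher on every CR array, against 3.91% of all genes. Their median change was 0.22, with a range of 0.013 to 0.36. Some of them also lay close to the filter, such as Mir665 at 5.23 to 5.58 on the knockout arrays. No change of the cluster is read from these values. Mir670, on chromosome 2, stood next to the threshold at 0.55 (SE 0.097, limma adjusted p = 0.0566), and also passed the filter only through its knockout CR arrays, with control arrays at 4.93 to 5.29 and CR arrays at 5.54 to 5.80.

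Other genes higher under CR had small values that missed the threshold. Efna4, an ephrin ligand, differed by 0.31 (SE 0.056, limma adjusted p = 0.0566) and Pigp, a subunit of the enzyme that starts GPI anchor synthesis, by 0.64 (SE 0.12, limma adjusted p = 0.0783). Pla2g4e, a cytosolic phospholipase, differed by 0.88 in knockout and 0.51 in wildtype muscle, and Igfbp3, a carrier of insulin-like growth factors, by 0.77 and 0.78. Mafa, a transcription factor best known from pancreatic beta cells, differed by 0.39 in knockout (limma adjusted p = 0.0841) and rose by 0.53 in wildtype muscle (limma adjusted p = 0.038). For all 5 genes the knockout diets did not overlap. Crygn, Tcf19, Iba57, Cd40 and Olfr435 completed the 12 higher genes of the naming rule, with limma adjusted p from 0.0968 to 0.123. Of these, Crygn and Olfr435 passed the filter on low values only through their knockout CR arrays, so no increase is read from them. Efna4, Tcf19, Iba57 and Cd40 also lay close to the filter, at 5.31 to 6.05 on the knockout arrays. A further probe set of Iba57, with a mean of 4.37 under the filter, gave a log2 change of -0.090. Only 3 tested genes had a change above 1, Pdk4, Adipoq and Fibin (the last named after its value was seen), and in each the diets overlapped. Without knockout control replicate 1 the change of Fibin was 0.55.

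Fast fibre genes lay slightly higher under CR. Of 18 tested, 0 passed, while 11 lay higher and 2 lower on all 4 CR arrays (3.91% and 3.08% of all genes did), with a median of 0.10 in knockout and 0.13 in wildtype muscle. Actn3, the fast-fibre alpha-actinin, read 12.68, 12.68, 12.70 and 12.84 on control and 12.89, 12.97, 12.94 and 12.92 on CR arrays, which differed by 0.21 (SE 0.050; adjusted p in limma 0.171). Mylpf, a regulatory light chain of fast myosin, differed by 0.27 in knockout muscle (limma adjusted p = 0.231) and rose by 0.50 in wildtype muscle (limma adjusted p = 0.049). Pvalb, the calcium buffer parvalbumin, differed by 0.16 and Myoz1, a calcineurin-binding Z-disc protein, by 0.18. The 2 lower members were myosin heavy chains of the intermediate fibre types, Myh1 at -0.31 and Myh2 at -0.30, while Myh4, the fastest, was at 0.081. Myh1 and Myh4 were named after their values were seen.

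The median of 16 slow fibre genes was -0.11 in knockout muscle, -0.23 without knockout control replicate 1 and -0.30 in wildtype muscle. Of the 16, 0 passed, 0 lay higher and 3 lower on every CR array (3.91% and 3.08% of all genes did). The 3 were Csrp3, Lmod2, a nucleator of thin filaments, at -0.64 (SE 0.16, limma adjusted p = 0.196), and Mb, myoglobin, at -0.32 (limma adjusted p = 0.46). Of 24 glycolysis and glycogen enzymes 0 passed and 8 lay higher, 0 lower, on every CR array (3.91% and 3.08% of all genes did), with a median of 0.13 in both genotypes. Phkg1, the catalytic subunit of muscle phosphorylase kinase, was at 0.35, Tpi1, triose phosphate isomerase, at 0.19 and Pkm, pyruvate kinase, at 0.22. Gbe1, the glycogen branching enzyme, lay the other way at -0.57 with overlapping diets.

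Oxidative metabolism showed no gene past the threshold. Of 35 subunits of respiratory complex I, 39 of complexes II to V and 25 genes of the TCA cycle and pyruvate dehydrogenase, 0 passed. In these lists 1, 0 and 1 members lay higher on every CR array and 0 lower, against 3.91% and 3.08% of all genes. Their medians were -0.013, -0.031 and -0.028, and -0.063, -0.076 and -0.062 without knockout control replicate 1. That array was the lowest of the 8 for 23 of the 35, 23 of the 39 and 15 of the 25 members. Knockout control replicate 3, which stays in the medians without that array, was the highest of the 8 for 26, 33 and 20 of them. The 18 fatty acid oxidation enzymes, 16 of them highest on knockout control replicate 3, had a median of -0.061. The median was -0.22 without knockout control replicate 1, where Cpt2, the inner membrane carnitine acyltransferase, was at -0.40 and Hadhb, a subunit of the trifunctional protein, at -0.46. The 20 sirtuins and known SIRT3 targets had a median of -0.0030, and -0.045 without knockout control replicate 1, with 0 separate in either direction. Pdk2, a kinase that inhibits pyruvate dehydrogenase, was at 0.19 in knockout and 0.24 in wildtype muscle and did not overlap between the knockout diets.

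Genes of the fasting response were low on knockout control replicate 1. Of 36 matched fasting and PPAR target genes 34 lay below the median of the other knockout arrays on it, 7 of them by more than 1 unit, with a median of -0.59. The other 7 knockout arrays had list medians between -0.14 and 0.24. Of the 32 members that were tested, this array was the lowest of the 8 for 28 (87.5%), and it was the lowest for 26% of all genes.

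Pdk4, the kinase that shuts off pyruvate oxidation in fasting, was at 8.89 on this array and at 12.05, 12.50 and 12.73 on the other controls, with CR arrays at 12.51 to 12.67. Apart from the first array, control and CR levels overlapped. Its log2 change was 1.05 (SE 0.59, limma adjusted p = 0.507), and 0.17 without the array. Ucp3, the muscle uncoupling protein, was at 6.43 against 8.79, 10.01 and 10.18 on the other controls and 9.26 to 10.08 under CR. Its change was 0.92, and 0.11 without the array.

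The list median was -0.0054 with all arrays and -0.093 without this array. The 20 glucocorticoid response genes shifted likewise, with a median of 0.16 that turned to -0.11, and 17 of the 20 were lowest on knockout control replicate 1. Ddit4, a glucocorticoid-induced inhibitor of mTORC1, was at 6.00 there and at 7.58, 9.52 and 9.44 on the other controls. Arrdc2, Cebpd and Plin4 were also among the 10 genes farthest below. In both lists 0 genes passed the threshold.

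The same array carried transcripts of male germ cells. Of 29 matched germ cell genes 27 lay more than 1 unit above the median of the other knockout arrays, with a median of 3.07. The mean of the 16 tested members was 9.40 on this array, 6.60 on knockout control replicate 2 and 5.31 to 6.25 on the other 6. Prm2, a protamine of sperm chromatin, read 11.86 on knockout control replicate 1, 8.81 on replicate 2, 6.95 and 7.33 on the remaining controls, and 6.24, 6.52, 8.12 and 7.33 under CR. Smcp, a sperm mitochondrial protein, read 11.29 and then 7.67, 5.71 and 6.36 on the controls, and 5.04 to 7.49 under CR. The levels outside the first array were graded, with knockout control replicate 2 and knockout CR replicate 3 the next highest.

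This array is on the control side of the contrast, and germ cell genes had negative changes. How much of these changes the array accounts for was not tested. All 16 tested members were negative with a median of -1.21, and the median was -0.30 without the array. Some of them, Meig1 and Crisp2 among them, passed the filter on low values only through 2 high arrays, knockout control replicate 1 and wildtype control replicate 3. Meig1 read 10.09 and 10.49 on these, and Crisp2 9.76 and 10.60. Nothing is therefore read from the shared direction of the tested members. Meig1, a meiosis-expressed gene, was at -2.22 (SE 1.20, limma adjusted p = 0.482) and at -1.10 without knockout control replicate 1, and 0 of the 16 passed. Of the 43 genes lower by more than 1 under CR, 24 lay more than 2 units high on knockout control replicate 1, and in 21 of these 24 the diets overlapped. In 19 of the 43 the diets did not overlap, against 3.08% of all genes that separated downwards. The chaperone, stretch or Z-disc lists, with 37, 29 and 40 of the 12056 tested genes, held 14 of the 43. Since the 43 were picked by their fall on the same arrays, and the lists with earlier results known, nothing is read from either count. Wildtype control replicate 3 carried the same transcripts, with a germ cell mean of 9.99.

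**Figure D4:**
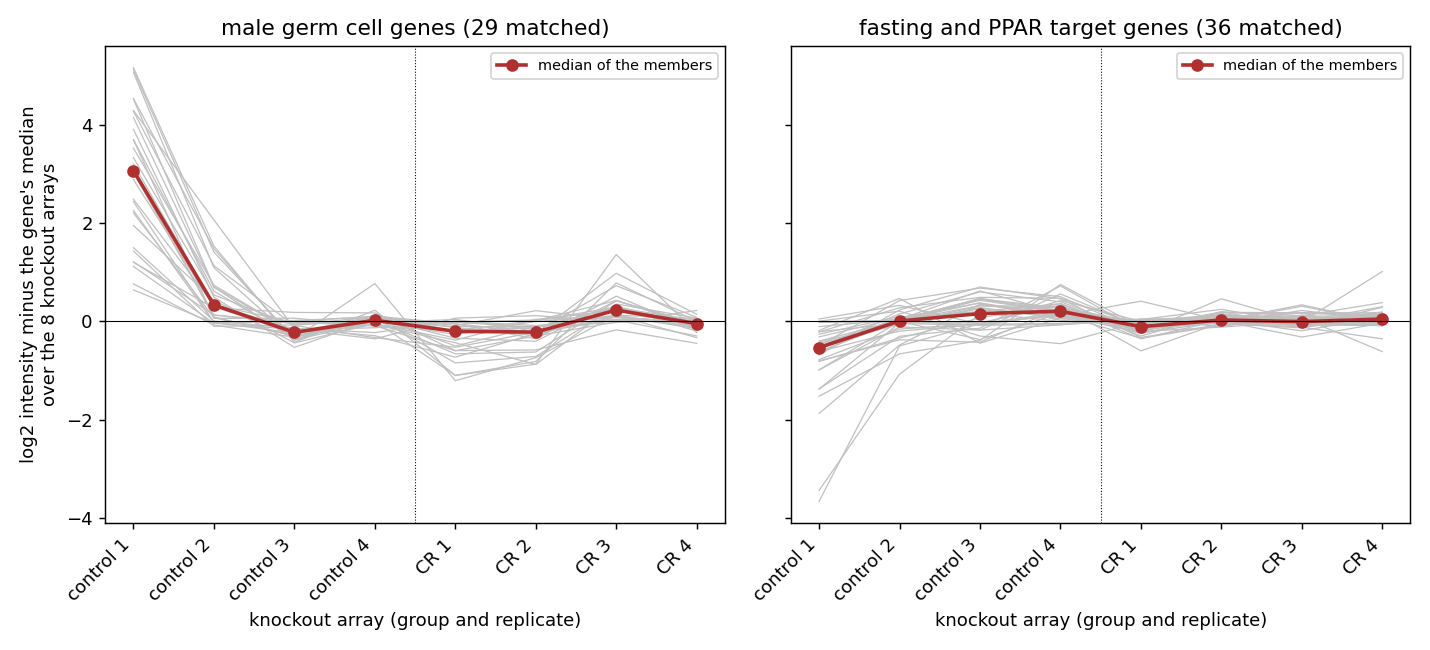
Log2 intensity minus each gene's median over the 8 knockout arrays (vertical axis) for 29 germ cell genes (left) and 36 fasting and PPAR target genes (right) on the 8 knockout arrays (horizontal axis); grey lines are genes and the red line is their median. Control replicate 1 is high for germ cell genes and low for fasting genes.

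Other stress pathways showed single members and no call. Srxn1, the NRF2 target sulfiredoxin, was at 8.05, 8.73, 9.42 and 8.63 on control and 6.96, 6.46, 7.25 and 7.38 on CR arrays, a change of -1.69 (SE 0.39, limma adjusted p = 0.155). Gclm, a subunit of the enzyme that starts glutathione synthesis, differed by -0.46 (limma adjusted p = 0.129), and Gstm2, a glutathione transferase, by 0.33 in knockout (limma adjusted p = 0.171), and it rose by 0.52 in wildtype muscle (limma adjusted p = 0.042). Of 26 NRF2 and antioxidant genes 3 lay lower and 2 higher on every CR array (3.08% and 3.91% of all genes did), with a median of -0.064. The 27 genes of ER stress and folding had a median of -0.15 in knockout and -0.14 in wildtype muscle. Without knockout control replicate 1, the highest of the 8 arrays for 17 of the 27, the knockout median was -0.067. There were 2 lower on every CR array, against 3.08% of all genes. Of these 2, Hspa5, the ER chaperone BiP, was at -0.29. The ER chaperone Hsp90b1 was at -0.36 and Pdia3, a disulfide isomerase, at -0.46 with overlapping diets. Of 16 mitochondrial chaperones and proteases only Hspe1, HSP10, at -0.45 lay lower on every CR array, against 3.08% of all genes. Hspe1 differed by -0.27 without knockout control replicate 1, while its partner Hspd1, HSP60, was at -0.26.

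Of 18 denervation and immature fibre genes, Ankrd1 was the 1 past the threshold, and the median was -0.075. On every CR array 3 lay higher and 1 lower, against 3.91% and 3.08% of all genes. Chrng and Chrna1, the fetal and alpha subunits of the acetylcholine receptor, were among the 3, at 0.30 and 0.27. Chrng lay close to the filter, at 5.33 to 5.56 on control and 5.58 to 6.00 on CR arrays. Chrne, a further subunit, was at 0.26 with overlapping diets. Without knockout control replicate 1 Chrna1 was at 0.18. Actc1, cardiac alpha-actin, named after its values were seen, was at 0.37 in knockout (limma adjusted p = 0.342) and rose by 1.33 in wildtype muscle (limma adjusted p = 0.0055). In 17 circadian clock genes 0 passed, with Per2, a core repressor, at -0.26 and Dbp, an output factor, at -0.71 with overlapping diets.

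Markers of the other cells of muscle were followed as well, and 0 of them passed. The 13 adipocyte markers had a median of 0.45 in knockout and 0.28 in wildtype muscle. Adipoq, adiponectin, read 6.75, 6.85, 6.81 and 8.02 on control and 8.10, 8.79, 7.22 and 8.37 on CR arrays, a change of 1.01 (SE 0.46, limma adjusted p = 0.411), and Fabp4, the adipocyte fatty acid binding protein, was at 0.52. The mean of the 13 was 8.03 to 8.40 on control and 8.10 to 8.95 on CR arrays, so the diets overlapped. The 15 tendon markers had a median of -0.31 and 17 macrophage and leukocyte markers one of -0.20, against -0.39 and -0.27 in wildtype muscle. In each of these 2 lists 1 member lay lower and 0 higher on every CR array, against 3.08% and 3.91% of all genes. They were Prg4, lubricin, at -0.69 and Lyz2, lysozyme, at -0.34. The list means overlapped between the diets, with tendon markers at 6.98 to 7.22 on control and 6.44 to 7.06 on CR arrays. Knockout CR replicate 4 was the lowest of the 8 arrays for 11 of the 15 tendon markers. Of 26 collagen and matrix genes, Postn, periostin, was at -0.62 and at -0.42 without knockout control replicate 1, and the median was -0.10, or -0.041 without it. Liver genes averaged 8.18 on knockout control replicate 2 and 6.09 to 7.25 on the other 7 knockout arrays, with a median change of -0.34 and of -0.17 without knockout control replicate 1, and pancreatic genes 5.29 to 5.53 on all 8. The 4 red blood cell markers averaged 6.29 to 6.43 on control and 6.46 to 6.61 on CR arrays, without overlap, and their median change was 0.33. Medians were -0.13 for 19 lipogenesis genes, 0.015 for 20 endothelial, pericyte and smooth muscle markers and -0.082 for 9 nerve and Schwann cell markers (-0.14 without knockout control replicate 1). How far these cell types enter the muscle results was not tested.

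**Figure D5:**
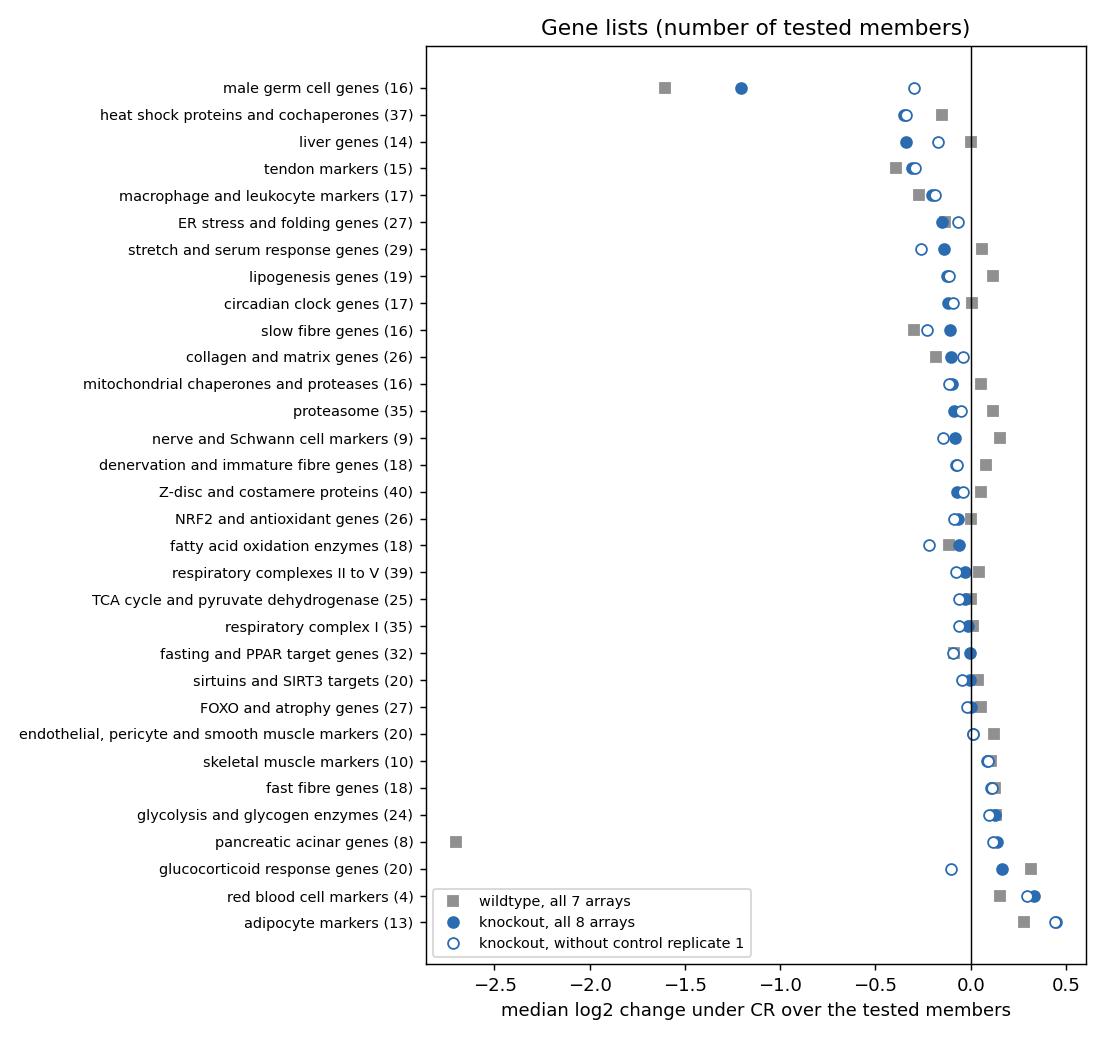
Median log2 change under CR (horizontal axis) over the tested members of each gene list (vertical axis, number of members in brackets), in knockout muscle with all arrays (filled circles), without knockout control replicate 1 (open circles) and in wildtype muscle (squares). The germ cell and glucocorticoid lists move most when that array is left out, and the chaperone list hardly moves.

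Whether the response differed from that of wildtype mice was tested as the difference of the diet effects between genotypes. For this difference 0 of 12056 genes (0%) passed in limma, with 689 at an unadjusted p under 0.05, 160 more positive and 529 more negative in knockout mice. The smallest adjusted p was 0.0822, for Mybph, a thick filament protein. It differed by -0.16 in knockout muscle, -0.075 without knockout control replicate 1, and rose by 1.35 in wildtype muscle, a difference of -1.51. The next genes by p were Hspb7 (difference -1.19), Ankrd1 (-3.02), Mlec, an ER lectin (-0.77), and Hspb1 (-1.20), all with a limma adjusted p of 0.641. All 7 genes that fell in knockout muscle had negative changes in wildtype muscle too, between -0.13 and -0.47, and none passed there. The larger values in knockout mice are therefore given side by side and not as a tested difference. Leaving out wildtype control replicate 2, which carried pancreatic transcripts, gave 7 genes. They were Mybph, Carhsp1, 2210010C04Rik, Sycn and the pancreatic genes Clps, Prss2 and Cpa1. The wildtype controls that remained still averaged 6.10 and 6.26 for the pancreatic list, against 5.46 to 5.63 on the wildtype CR arrays. Prss2 passed the filter only through wildtype control arrays, with means of 4.84 to 5.08 in the other groups. No genotype difference is therefore read from the pancreatic genes. Leaving out knockout CR replicate 2 gave 1 gene.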

How the data were processed

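Gastrocnemius RNA of 15 mice was biotin-labelled and hybridised to Affymetrix mouse arrays, per the labels. The deposited values are log2 intensities that the authors made with RMA, per the submitters' processing notes. The sources used here name no version of it and no scan or hybridisation batch.

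Of 35556 probe sets, 21789 had 1 symbol in the platform annotation, 1621 had several and 12146 were not listed there. Each of the 19938 genes took its probe set with the highest mean, and those whose mean was under the 40th percentile of listed probe sets were dropped, which left 12056. The main model (limma 3.58.1, R 4.3.3) held all 15 arrays and a mean for each group, with two-sided tests and Benjamini-Hochberg adjustment. Errors beside changes are moderated standard errors. The fit was tested on simulated data. Replicate numbers did not pair the arrays.

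The 32 gene lists (787 entries, 736 matched, 690 tested) and the contrast were chosen with earlier results of these data known, so lists are described by counts and medians. The text names every gene past the threshold, the 12 lower and 12 higher genes with the smallest p whose diets did not overlap and the 5 smallest p of the genotype difference, and it takes examples from up to 4 members of each list with the smallest p and from the 10 genes farthest above and below on knockout control replicate 1. Genes outside this rule are said to be chosen after their values were seen. Sequences come from RefSeq tables of GRCm38.p6. Alternatives were other filters, scalings, probe set rules, priors, arrays, weights and a replicate block. Figures were drawn with matplotlib 3.10.9.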

Additional observations from a re-analysis of the deposited data

Results flagged for a closer look

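In groups of 4 arrays, an array was noted where its gap to the nearest other array, as a share of the group's range, passed Dixon's critical value. Chance gives about 5% of groups, and 82 groups were looked at. Lmcd1 stood at 10.89 on knockout control replicate 1, with the nearest control array at 10.19. The mean of the NRF2 and antioxidant genes was 8.451 on the same array, with the nearest control at 8.629. The mean of the fast fibre genes was 12.47 on knockout CR replicate 3, with the nearest CR array at 12.49.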

How the results depend on the processing

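With every other setting kept, the number of genes past the threshold with no filter was 2 higher and 4 lower, then 0 and 12 with the filter at the 60th percentile, 0 and 3 with quantile normalization, 0 and 11 with arrays centred on their median, 0 and 4 with a trended robust prior, 1 and 16 with the 8 knockout arrays alone, 6 and 18 with array weights, 0 and 4 without the 2 germ cell arrays, and 1 and 7 with the mean of probe sets. A replicate block gave 2 and 13, although same-numbered arrays did not deviate together (correlations of -0.182 to 0.0859). Leaving out each array in turn gave 0 to 3 higher and 0 to 12 lower genes, and 0 to 7 genes with a different response between genotypes. That last count was 1 with the filter at the 60th percentile and 0 in the other settings. The causes were not tested. The changes of the 8 named genes kept their direction in every setting that gave a value. The median of the chaperone list ranged from -0.39 to -0.33. Medians of 13 lists changed sign in at least 1 setting, among them the fasting, glucocorticoid and respiratory complex lists. At signals near the filter, as for Mir409 and Mir670, the arrays give little margin over background.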

Other observations

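Probe sets outside the gene table were also looked at. Of 5466 above the filter without a single symbol, 5301 had distinct values, and 50 of them repeated 1 identical series of values with a log2 change of -1.10. Counting every copy, 58 were lower and 7 higher past the limma threshold. With each identical series counted as 1 measurement, 0 passed in either direction, the smallest adjusted p was 0.0824, and 674 had an unadjusted p under 0.05.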
